A study of Mus musculus with 2 samples.

Results

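The nuclear-coded subunits of the mitochondrial respiratory chain were compared between osteoblasts kept in 4 mM phosphate and osteoblasts kept in 1 mM phosphate. The set holds 44 named genes for subunits of complexes I to IV and for cytochrome c, listed by their place in the chain. Its members on the array were all probe sets whose annotation named only 1 of these genes. They numbered 93 and covered 43 of the 44 genes, out of 18193 genes named by the array. Cox7b had no such probe set and was not analysed here. At least 1 array was above the signal floor of 21.5 for 81 of the 93 probe sets, and the other 12 were at the floor on both arrays. The floor is the pooled median signal of all probe sets other than manufacturer's controls.

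Primary osteoblasts, the cells that form bone, came from skull caps (calvariae) of C57BL/6 mice aged 5 days. They were released by enzyme digestion, grown for 3 days in medium with 10% serum, held overnight without serum and then given serum-free medium for 6 h. The phosphate group received medium with 4 mM phosphate at pH 7.2, made with a 0.5 M sodium phosphate stock, so that sodium was added with it. The control group received the unmodified medium, which contains 1 mM phosphate at the same pH, and each group was measured on 1 array. No genotype other than C57BL/6 is given, and whether animals were pooled is not given in the sources used here.

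The respiratory chain passes electrons from nutrients to oxygen in the inner mitochondrial membrane and pumps protons as it does so. Complex I takes electrons from NADH and complex II from succinate, and both hand them to ubiquinone. Complex III passes them on to the soluble carrier cytochrome c, and complex IV delivers them to oxygen. Most subunits are encoded in the nucleus and imported, while a few are encoded in mitochondrial DNA. In osteoblasts, glycolysis supplies much of the ATP, and mitochondria take part in calcium and phosphate handling as well as in energy supply.

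No replicate arrays were available, so no test was run and no p-value is given. Precision is limited by having 2 arrays. The only measure of error was technical, namely the spread of log2 ratios between probe sets of the same gene. Its standard deviation was 0.13 where both signals were above 1000, over 526 genes, and 0.42 where the dimmer signal lay between the floor and 100. All log2 ratios are phosphate minus control, and each gene is represented by its brightest probe set unless stated otherwise. The signal of a probe set depends on its probes as well as on its RNA. Amounts of RNA were therefore compared between the arrays and not between genes. Signals of different genes were set side by side only to describe how bright their probe sets were.

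The ratio of 3′ to 5′ signal was 1.43 on the phosphate array and 1.36 on the control array for actin, and 0.769 and 0.748 in the same order for Gapdh. The osteoblast label was borne out by Col1a1, Col1a2, Sparc, Ibsp, Alpl, Pth1r, Sp7 and Dlx5, which passed the floor on each array and had log2 ratios from −0.39 to 0.34. Of 21 macrophage and osteoclast markers, 18 were measured, with a median log2 ratio of −0.35. Of these, 15 were below 0, against 55.9% of all measured genes. The lowest were Aif1 at −0.80 and Mrc1 at −0.79, and the highest Cd14 at 1.21 and Lyz1 at 0.12. Their summed signal was 30447 in phosphate and 31345 in control, and Itgam, Ocstamp and Dcstamp were at the floor. The sum is weighted to bright genes such as Lyz1, with 10924 in phosphate and 10058 in control. All 8 chondrocyte markers were measured, with summed signals of 17689 in phosphate and 17992 in control. Of 8 endothelial markers 7 were at the floor, among them Pecam1, Cdh5 and Kdr, and the only measured gene, Egfl7, had 33.0 in phosphate and 60.4 in control. Of 10 skeletal muscle markers 5 were at the floor, among them Myod1 and Myog, and the summed signal was 148 in phosphate and 159 in control. Of 6 adipocyte markers with a probe set, Cidec, Ucp1 and Lep were at the floor, and the summed signal was 1529 in phosphate and 1768 in control. In bulk RNA, fewer cells of a type and less RNA per cell cannot be told apart, and the part of these other cells in the values below was not tested.

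Respiratory chain transcripts differed little between the arrays. Of the 43 genes, 42 lay within 1.5-fold, none was at least 1.5-fold lower and 1, Cox7c, was at least 1.5-fold higher. Over all 12276 measured genes, 7.26% were at least 1.5-fold higher, 12.1% at least 1.5-fold lower, 19.4% past 1.5-fold in one or the other direction and 5.22% at least 2-fold different in either direction. The members were much brighter, with median signals of 2901 in phosphate and 2955 in control, against 221 and 233 for all measured genes. Technical spread is larger at low signal, so these shares do not compare like with like. The part of brightness in the difference was not tested. The median log2 ratio of the members was −0.05, against −0.06 for all measured genes. It was above 0 for 18 of the 43 genes, a share of 41.9%, against 44.1% of all measured genes. It was below 0 for the other 25, against 55.9% of all measured genes.

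Within this narrow range the complexes took different positions. The median log2 ratio was −0.11 for the 22 genes of complex I and −0.25 for the 4 of complex II. It was 0.11 for the 6 genes of complex III, 0.33 for the cytochrome c gene Cycs and 0.16 for the 10 genes of complex IV. Genes above 0 numbered 4 of 22 in complex I, 0 of 4 in complex II, 4 of 6 in complex III and 9 of 10 in complex IV. The share over all measured genes was 44.1%. It was 46.7% at mean signals from 1000 to 2000, where most complex II genes lay. It was 66.3% from 4000 to 8000 and 94.3% above 8000, the bands that held most complex IV genes. The medians above 0 were not stable to scaling. Quantile normalization gave −0.01 for both complex III and complex IV, and setting the spiked-in control RNAs equal turned both below 0. The medians of complexes I and II were below 0 under every scaling tried, and below the median of all genes under each. Only loess and quantile normalization could change the position relative to all genes, since the other scalings shift every gene equally.

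**Figure D1:**
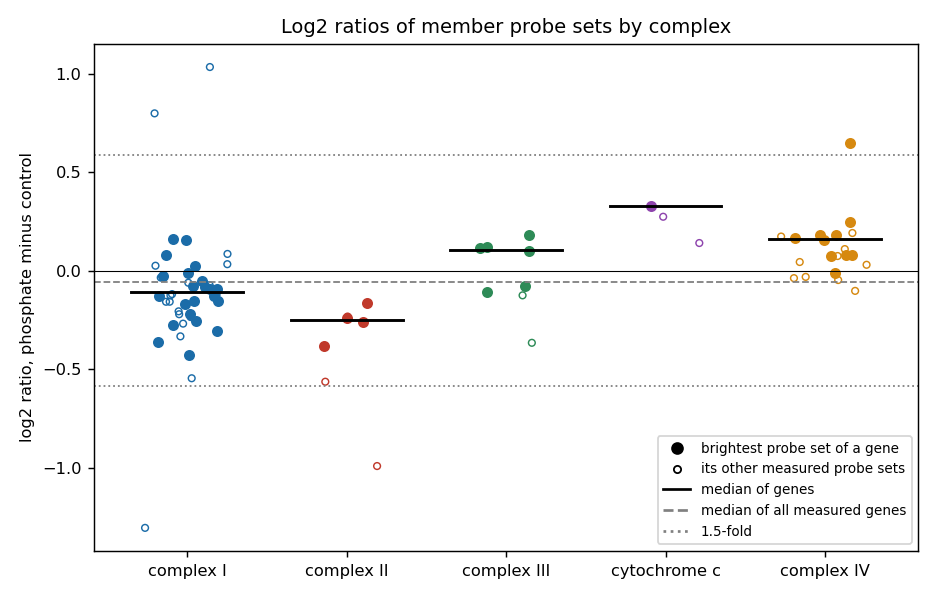
Log2 ratios of phosphate minus control (vertical axis) for the measured probe sets of each complex (horizontal axis). Filled points are the brightest probe set of each gene, open points its other measured probe sets, black bars the medians of genes, the dashed line the median of all measured genes (−0.06) and dotted lines 1.5-fold; the medians run from −0.25 in complex II to 0.33 for cytochrome c.

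Promoter sequences from RefSeq (GRCm38.p6), reaching from 250 bases before to 50 after the gene start, were matched by symbol for 34 of the 44 genes. They were searched on both strands for letters bound by known regulators of these genes and by factors that answer growth signals. The letters of nuclear respiratory factor 1, visible in the Sdha sequence below, were in 7 of the 34 promoters (20.6%). They were in 5.19% of all 27025 genes with a promoter sequence and in 11.3% of those measured here. The ETS letters CCGGAAG, read by GABP among others, were in 8 (23.5%), against 9.93% and 19.4%. The CREB-type letters TGACGTCA were in 4 (11.8%), against 2.03% and 3.51%, and the AP-1 letters TGANTCA were in 3 (8.82%), against 8.97% and 6.21%. The motif of YY1 was in 3 (8.82%), against 0.755% and 1.74%. A match describes the letters only and is neither a binding site nor a cause.

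The 250 bases before the start are printed for 4 genes, 5′ to 3′ on the strand of the gene, with matches in capitals. They were chosen with their ratios known: Cycs had the highest ratio among members with signals above 1000, Sdha and Sdhd belong to the complex with the lowest median, and Ndufs3 had the lowest ratio of all members. All 4 genes lie on the minus strand, Cycs at chr6:50566570-50566819, Sdha at chr13:74350241-74350490, Sdhd at chr9:50603850-50604099 and Ndufs3 at chr2:90904722-90904971. The capitals mark the CREB-type letters in Cycs, 3 copies of the nuclear respiratory factor 1 letters in Sdha, those letters followed by the ETS letters of the opposite strand in Sdhd, and the ETS letters in Ndufs3.
Cycs: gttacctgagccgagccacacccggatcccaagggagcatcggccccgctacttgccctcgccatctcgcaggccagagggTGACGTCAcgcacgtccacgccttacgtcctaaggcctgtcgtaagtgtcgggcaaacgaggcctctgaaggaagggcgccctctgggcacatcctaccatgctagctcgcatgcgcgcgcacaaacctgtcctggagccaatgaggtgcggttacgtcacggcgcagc
Sdha: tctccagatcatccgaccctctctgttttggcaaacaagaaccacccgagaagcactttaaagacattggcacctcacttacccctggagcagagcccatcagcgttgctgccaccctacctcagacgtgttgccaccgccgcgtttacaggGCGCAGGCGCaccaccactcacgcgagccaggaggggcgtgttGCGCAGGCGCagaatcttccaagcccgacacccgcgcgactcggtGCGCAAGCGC
Sdhd: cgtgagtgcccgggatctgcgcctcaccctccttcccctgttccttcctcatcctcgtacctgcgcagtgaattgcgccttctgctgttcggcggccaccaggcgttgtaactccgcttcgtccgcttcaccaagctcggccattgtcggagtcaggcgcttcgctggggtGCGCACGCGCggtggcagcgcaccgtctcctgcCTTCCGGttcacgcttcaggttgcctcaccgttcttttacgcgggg
Ndufs3: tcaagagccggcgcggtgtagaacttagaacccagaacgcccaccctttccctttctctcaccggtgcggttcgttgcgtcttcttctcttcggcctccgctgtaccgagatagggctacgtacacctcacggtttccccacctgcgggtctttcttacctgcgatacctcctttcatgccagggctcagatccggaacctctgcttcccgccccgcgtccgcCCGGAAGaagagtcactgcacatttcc

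Ratios of genes with and without these letters overlapped. The 13 measured members with nuclear respiratory factor 1 or ETS letters had log2 ratios from −0.43 to 0.18 with a median of −0.11, and the 20 without either had −0.31 to 0.65 with a median of 0.01. The 4 genes with CREB-type letters were Cycs at 0.33, Uqcrfs1 at 0.12, Ndufb2 at 0.08 and Ndufa10 at −0.28.

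Complex I, the largest of the complexes, has a matrix arm that holds its redox centres and a membrane arm that pumps protons. The 6 core subunits of the matrix arm among the members all had lower signals in phosphate, against 55.9% of all measured genes. Their median log2 ratio was −0.19. Ndufs3, a core subunit next to the ubiquinone site, had a signal of 1636 in phosphate and 2203 in control. This log2 ratio of −0.43, or 1.35-fold lower, was the lowest of all members and rests on its only probe set. Ndufs1, the large subunit that carries iron-sulfur clusters, had 519 in phosphate and 667 in control, a log2 ratio of −0.36. Both were larger than 2 technical standard deviations, taken as 0.26 for signals above 1000 and as 0.32 for signals above 400, but Ndufs1 was at −0.31 after loess correction.

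Ndufs8, an iron-sulfur subunit, had 3127 in phosphate and 3734 in control, a log2 ratio of −0.26. Its bright probe sets agreed in sign and ranged from −0.27 to −0.11, while its dim probe set, with 63.5 in phosphate and 36.5 in control, gave 0.80. Ndufs7, which carries the iron-sulfur cluster nearest to ubiquinone, had 1467 in phosphate and 1605 in control, and its probe sets gave −0.13 and −0.24. The NADH-binding subunit Ndufv1 and its partner Ndufv2 lay close to the centre, at −0.09 and −0.08. All 3 probe sets of each gene were below 0.

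Accessory subunits, which do not carry electrons but stabilise the complex, spread around a smaller difference. The 5 of the matrix arm had a median of −0.15, and the 11 of the membrane arm had −0.05. In the membrane arm, Ndufb3 had 1493 in phosphate and 1849 in control (log2 ratio −0.31). Ndufa10 had 1876 in phosphate and 2271 in control (−0.28). The other probe set of Ndufa10, close to the floor with 24.9 in phosphate and 23.5 in control, gave 0.08. At the other end, Ndufa1 had 8086 in phosphate and 7228 in control (0.16). In the matrix arm, Ndufa9 had 1607 in phosphate and 1872 in control (−0.22), whereas Ndufa2 had 5581 in phosphate and 5003 in control (0.16). Ndufb8 was at 0.02 and turned to −0.02 with loess or quantile normalization. The other complex I genes above 0, Ndufa1, Ndufa2 and Ndufb2, stayed above 0 under both but turned below 0 with either set of spikes made equal.

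Ndufs4, an accessory subunit needed for a stable matrix arm, was the member whose probe sets disagreed most. The brightest, with 1391 in phosphate and 1564 in control, gave −0.17, and a dimmer one gave −0.55. The next, with 47.7 in phosphate and 118 in control, gave −1.31. The dimmest, under the floor in control, was at least 2.05-fold higher in phosphate. These dim probe sets give no common direction.

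**Figure D2:**
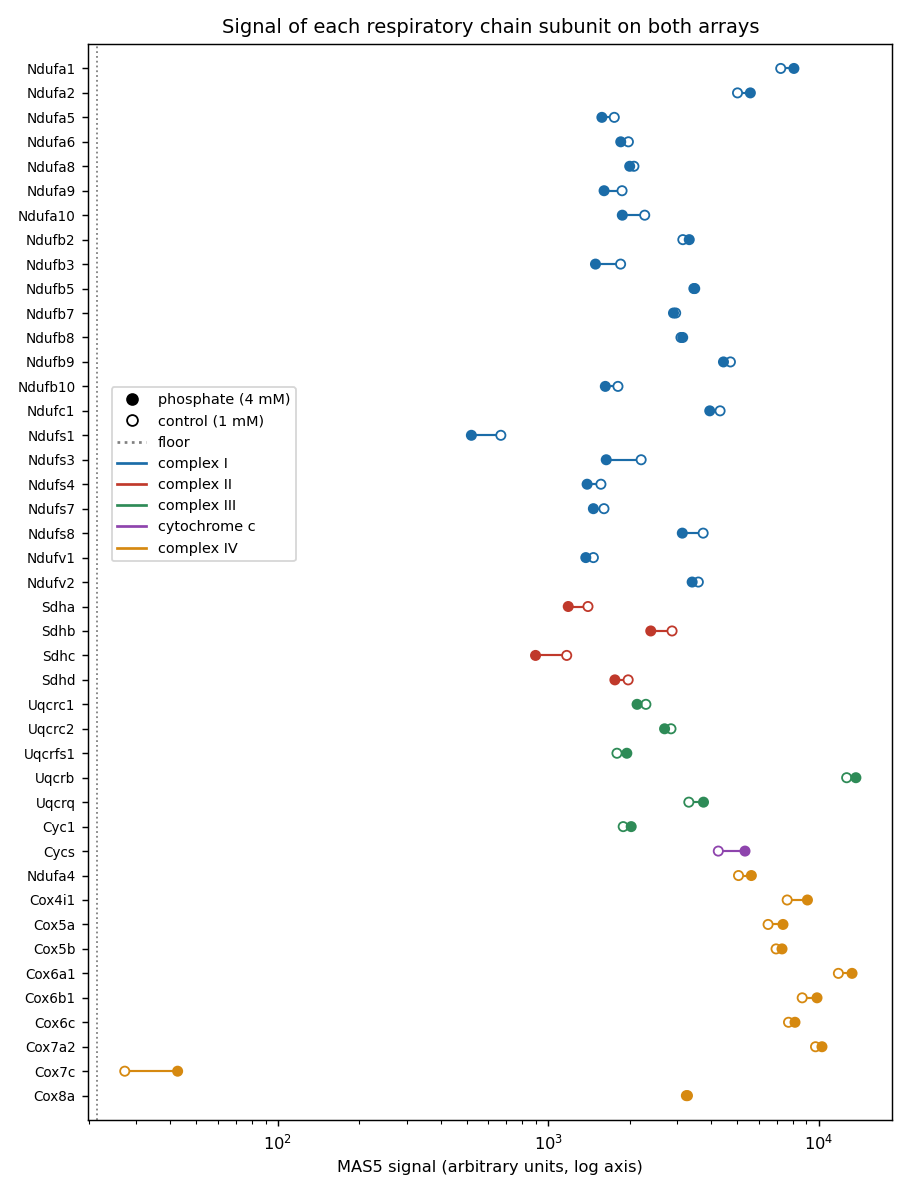
MAS5 signal of the brightest probe set of each of the 43 genes on the phosphate array (filled) and the control array (open), on a log axis, coloured by complex. Filled points lie left of open points for all 4 complex II genes and 18 of 22 complex I genes, against 55.9% of all measured genes. Cox7c alone lies close to the floor (dotted line).

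Complex II, succinate dehydrogenase, belongs to both the respiratory chain and the tricarboxylic acid cycle, and all of its subunits are encoded in the nucleus. All 4 genes had lower signals in phosphate, against 55.9% of all measured genes. All 7 of their measured probe sets were below 0 as well, when 47.4% of all measured probe sets were above 0. Sdha, the flavoprotein that oxidises succinate, had 1184 in phosphate and 1401 in control, a log2 ratio of −0.24, and its other measured probe set gave −0.56. The iron-sulfur subunit Sdhb had 2391 in phosphate and 2866 in control, a log2 ratio of −0.26 on a lone probe set. The membrane anchors Sdhc and Sdhd had 896 and 1762 in phosphate, against 1169 and 1972 in control, giving −0.38 and −0.16. A second probe set of Sdhc, with 248 in phosphate and 492 in control, gave −0.99, and that of Sdhd gave −0.23.

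None of the 4 genes of complex II reached 1.5-fold on its brightest probe set, against 12.1% of all genes at least 1.5-fold lower. Sdhb, at −0.26, lay just inside 2 technical standard deviations (0.26), and Sdha and Sdhd lay further inside, while Sdhc, at −0.38, exceeded the 0.32 that holds for signals above 400. The median of −0.25 was nearly the same after loess correction (−0.25) and quantile normalization (−0.27), and was −0.33 when each gene was given the median of its probe sets. With the poly-A spikes set equal it was −0.72, when all measured genes had a median of −0.52.

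In complex III, the cytochrome bc1 complex, ratios lay on both sides of 0. Its electron carriers were a little higher in phosphate: the Rieske iron-sulfur protein gene Uqcrfs1 had 1950 in phosphate and 1793 in control (0.12), and the cytochrome c1 gene Cyc1 had 2024 in phosphate and 1891 in control (0.10). Its large core proteins were a little lower, with 2128 in phosphate and 2294 in control for Uqcrc1 (−0.11) and 2689 in phosphate and 2840 in control for Uqcrc2 (−0.08). All of these differences lay within 1 technical standard deviation of 0. Among the small subunits, Uqcrq had 3745 in phosphate and 3306 in control (0.18). Uqcrb had 13706 in phosphate and 12670 in control on its brightest probe set (0.11) but 2279 in phosphate and 2938 in control on the other (−0.37), and its brightest probe set turned to −0.05 after loess correction, so its direction was not settled.

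Cytochrome c, the soluble carrier between complexes III and IV and a trigger of apoptosis when it leaks into the cytosol, had the highest ratio of the members with bright probe sets. Cycs had 5333 in phosphate and 4248 in control, a log2 ratio of 0.33 or 1.26-fold. Its other measured probe sets had 1846 and 2654 in phosphate, against 1527 and 2408 in control, giving 0.27 and 0.14. The 3 probe sets agreed in sign, and the ratio was 0.25 after loess correction, 0.24 after quantile normalization and 0.10 with the hybridisation spikes set equal, but −0.14 with the poly-A spikes set equal. Of 40 members with both signals above 1000, Cycs was the only one higher by more than 2 technical standard deviations, and 3, namely Ndufs3, Ndufb3 and Ndufa10, were lower by more than that. Among all 1875 genes this bright, 251 were higher and 225 lower by as much. Against the same limit of 0.26, Cycs no longer passed after loess correction or quantile normalization, while Ndufs8 passed (−0.30 under both), as did Sdhb (−0.28 under both).

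Complex IV, cytochrome c oxidase, has a catalytic core encoded in mitochondrial DNA and a ring of nuclear-coded subunits around it, which the members represent. Signals were higher in phosphate for 9 of the 10 measured genes, against 44.1% of all measured genes. Cox4i1, the subunit through which ATP inhibits the enzyme, had 9074 in phosphate and 7636 in control, a log2 ratio of 0.25 on its only probe set. Cox5a, Cox6b1, Cox6a1 and Ndufa4, a subunit first assigned to complex I, had log2 ratios from 0.16 to 0.18. Their signals were 7369, 9844, 13264 and 5629 in phosphate, against 6490, 8678, 11808 and 5046 in control. Cox6c, Cox7a2 and the zinc-binding subunit Cox5b followed at 0.07 to 0.08, and all 3 turned below 0 after loess correction (−0.06 to −0.04) and quantile normalization (−0.08 to −0.05). Cox6a1 was at 0.01 after loess correction and −0.03 after quantile normalization, and Cox4i1 at 0.12 and 0.10. Cox8a, with 3237 in phosphate and 3267 in control, was nearly equal on the arrays (−0.01).

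Not all probe sets of complex IV agreed. Cox5b had 4 measured probe sets that ranged from −0.10 to 0.11, and Cox5a had 1 of 3 below 0, at −0.05. In total 15 of the 20 measured probe sets were above 0, against 47.4% of all measured probe sets. Most were bright, and among all genes the share above 0 was 66.3% for mean signals between 4000 and 8000 and 94.3% above 8000. Cox7c, the only member past 1.5-fold, was measured on a single dim probe set, with 42.6 in phosphate and 27.2 in control (1.57-fold higher, log2 ratio 0.65), and its other probe set was at the floor. The technical standard deviation at this signal was 0.42, and the difference lay within 2 of it (0.84). Without Cox7c, the median of complex IV was 0.16 and that of all members −0.06.

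Signal level moved with these ratios. Among all genes, the share above 0 was 46.7% where the mean signal of both arrays lay between 1000 and 2000, 53.1% between 2000 and 4000, 66.3% between 4000 and 8000 and 94.3% above 8000. The median log2 ratio of all genes in the brightest band was 0.17, and the 5 members there, 4 from complex IV and Uqcrb, had the same median of 0.17. In the band from 4000 to 8000, which held 9 members, the members had 0.16 and all genes 0.07. In the band from 1000 to 2000, where 9 genes of complex I, 3 of complex II and 2 of complex III lay, the 14 members had −0.16 and all genes −0.02. Mean signals here are geometric.

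Across the 42 members other than Cox7c, log2 ratio and mean log2 signal had a Pearson correlation of 0.75 and a Spearman correlation of 0.76. With Cox7c, the dim member with the highest ratio, they were 0.12 and 0.64 over 43 genes, so the Pearson value depends on leaving out that gene. Over all 3704 genes with a mean signal above 500 they were 0.11 and 0.16. This is a description across genes that share the same 2 arrays, and genes are not independent replicates. After loess correction, which subtracts the trend of all probe sets with signal, the Pearson correlation was 0.55. The corrected medians were −0.14 for complex I, −0.25 for complex II, 0.02 for complex III, 0.25 for cytochrome c and 0.03 for complex IV. Genes above 0 then numbered 3 of 22 in complex I, 0 of 4 in complex II, 3 of 6 in complex III and 6 of 10 in complex IV. The median of complex IV exceeded that of complex I by 0.27 as deposited and by 0.16 after loess correction, and that of complex II by 0.41 and 0.28.

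**Figure D3:**
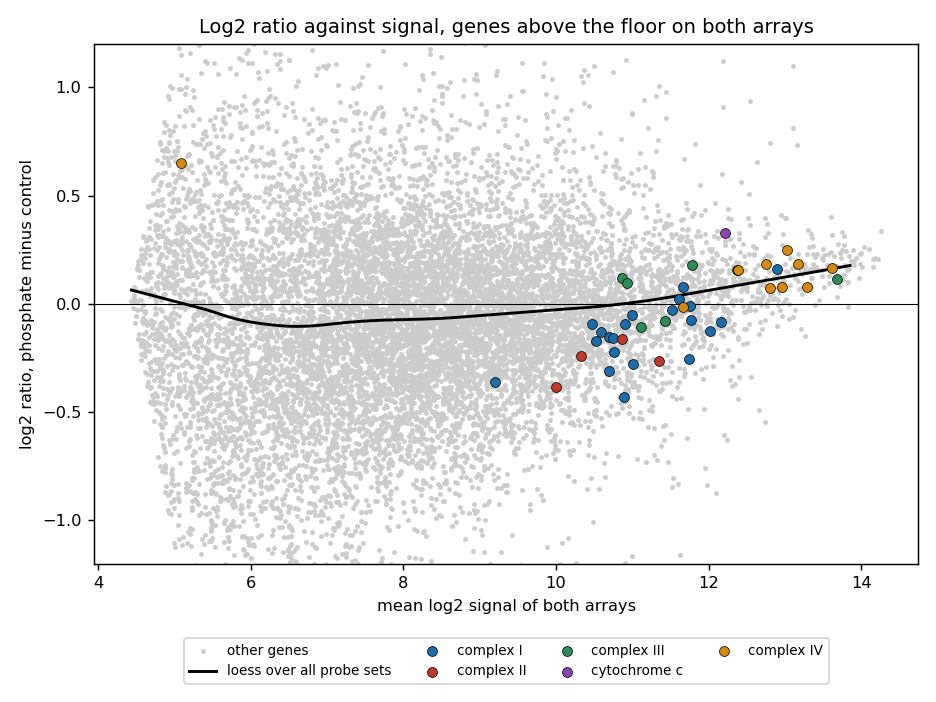
Log2 ratio of phosphate minus control against the mean log2 signal of both arrays for genes above the floor on both. Grey points are other genes (309 beyond 1.2 in either direction are not drawn), coloured points the members by complex, and the black line the loess trend of all probe sets, which climbs at high signal where most complex IV genes lie, while most complex I and all complex II genes lie under it.

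Agreement between probe sets bounds how far single members can be read. Of 26 members with 2 or more probe sets past the floor on each array, 19 had all of them on the same side of 0, and the median spread between the highest and lowest was 0.11. With both signals above 1000, 16 of 20 agreed in sign. Of the 81 measured probe sets, 5 were at least 1.5-fold different, against 19.9% of all measured probe sets. They belonged to Ndufs4, Ndufs8, Sdhc and Cox7c, and the brightest signal among them was 492.

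Scaling decides where 0 lies. The poly-A spikes, bacterial RNAs carried through labelling, had a median log2 ratio of 0.46, and with them set equal the median of all measured genes moved to −0.52. The members then had −0.52 as well, with complex I at −0.57, complex II at −0.72, complex III at −0.36, cytochrome c at −0.14 and complex IV at −0.30. Setting the median of mouse probe sets to 0 or spikes equal subtracts 1 value from every gene. Positions relative to all genes then cannot change, and only loess correction and quantile normalization could alter them. Under both, complexes I and II stayed below the median of all genes and complexes III and IV and cytochrome c above it. The distance of complex III from it was 0.16 as deposited, 0.05 after loess and 0.04 after quantile normalization. In the same order, complex IV had 0.22, 0.05 and 0.04, and cytochrome c 0.38, 0.28 and 0.29. Complex I had −0.05, −0.11 and −0.10, and complex II −0.20, −0.23 and −0.22. These positions hold for medians and not for each member.

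**Figure D4:**
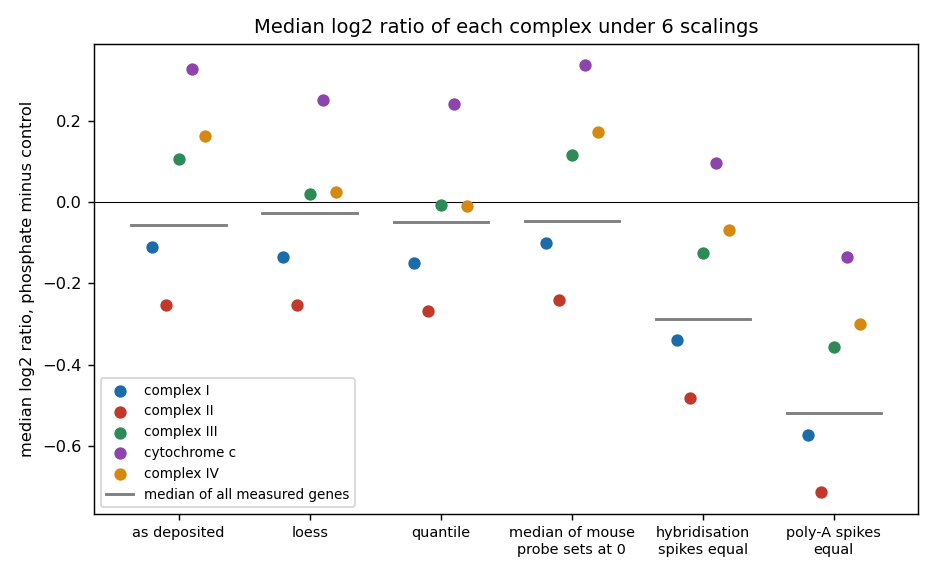
Median log2 ratio of phosphate minus control for each complex (coloured points) under 6 scalings of the arrays (horizontal axis), with the median of all measured genes under each (grey bars). Complexes I and II lie under the grey bar and complexes III and IV and cytochrome c above it in each scaling, while the sign of complexes III and IV changes. Only loess and quantile could change the position relative to the grey bar, since the median and spike scalings shift every gene equally.

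Other genes of the same pathway were taken from lists, described by their counts and medians. The 14 measured subunits of complexes I, III and IV outside the set had a median log2 ratio of −0.02. Of these, 6 were above 0, against 44.1% of all measured genes, and none was past 1.5-fold, against 19.4%. Their extremes were Ndufs5, with 2432 in phosphate and 2703 in control (−0.15), and Uqcrh, with 7934 in phosphate and 7301 in control (0.12). The next ones were Ndufc2 at −0.11 and Ndufb11 at 0.08. The 17 measured subunits and regulators of ATP synthase, the enzyme that uses the proton gradient, had a median of 0.07, which became −0.01 after loess correction and −0.02 after quantile normalization. None passed 1.5-fold, against 19.4% of all measured genes. Atp5a1 (−0.11) and the inhibitor gene Atpif1 (−0.11) were lowest and Atp5l (0.18) and Atp5o (0.15) highest. Other probe sets of Atpif1 reached 0.36 and of Atp5o 0.46.

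Isoforms restricted to certain tissues were dim or at the floor. Muscle-type Cox6a2, Cox7a1 and Cox8b had signals of 43.2, 44.2 and 134 in phosphate, against 30.2, 39.9 and 157 in control, and the testis forms Cyct and Cox7b2 were at the floor on both arrays. Cox4i2, the lung form, had 24.2 in phosphate and 29.0 in control. Cox6b2, a testis form, had 148 in phosphate and 164 in control, and Cox8c, another, had 59.6 in phosphate and 40.3 in control. Ndufa4l2, a hypoxia-induced relative of Ndufa4, was the exception, with 931 in phosphate and 1318 in control, a log2 ratio of −0.50.

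Assembly factors, which build the complexes without being part of them, were mostly lower in phosphate. Of 37 measured, 31 were below 0, against 55.9% of all measured genes, with a median of −0.21. At least 1.5-fold lower were 10, against 12.1% of all measured genes, and none was 1.5-fold higher, against 7.26%. The list was dimmer than the subunits, with median signals of 293 in phosphate and 421 in control, against 2901 in phosphate and 2955 in control for the members, and technical spread is larger at low signal. Ndufaf3, an early factor for complex I, had 199 in phosphate and 451 in control (−1.18), and Sdhaf4, which acts on Sdha, had 786 in phosphate and 1664 in control (−1.08), each on 1 probe set. The highest were Sco2, a copper chaperone of complex IV, at 0.48 and Ndufaf4 at 0.31, whose other probe set gave −0.64. The median was −0.15 after loess correction and −0.18 after quantile normalization, so it stayed below 0 under each. The difference between assembly factors and subunits was not tested.

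Regulators of mitochondrial biogenesis had a median of 0.16 over 19 measured genes, with 12 above 0, against 44.1% of all measured genes. The median was −0.31 with the poly-A spikes set equal and −0.07 with the hybridisation spikes set equal. Nfe2l2, which encodes the antioxidant regulator NRF2, had 1972 in phosphate and 948 in control (2.08-fold higher). It was the only one past 1.5-fold in that direction, against 7.26% of all measured genes. Tfb1m, a methyltransferase of mitochondrial ribosomal RNA, had 142 in phosphate and 217 in control (−0.61). The coactivator gene Ppargc1a was within rounding of the floor, with 21.4 in phosphate and 21.8 in control, and Ppargc1b was under the floor in phosphate and at 31.2 in control. Tfam, the packaging factor of mitochondrial DNA, had 577 in phosphate and 567 in control (0.03). Nrf1 had 73.4 in phosphate and 73.6 in control, but its other probe sets ranged from −0.33 to 0.87, and Gabpa gave −0.25 and, on another probe set, 0.41. Polrmt, the mitochondrial RNA polymerase gene, was at 0.42, Gabpb1 at 0.48 and Ppard at 0.48. The other probe set of Gabpb1 gave 0.03. Gabpb1 and Ppard were dim, with 91.8 and 61.3 in control, where the technical standard deviation was 0.42.

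**Figure D5:**
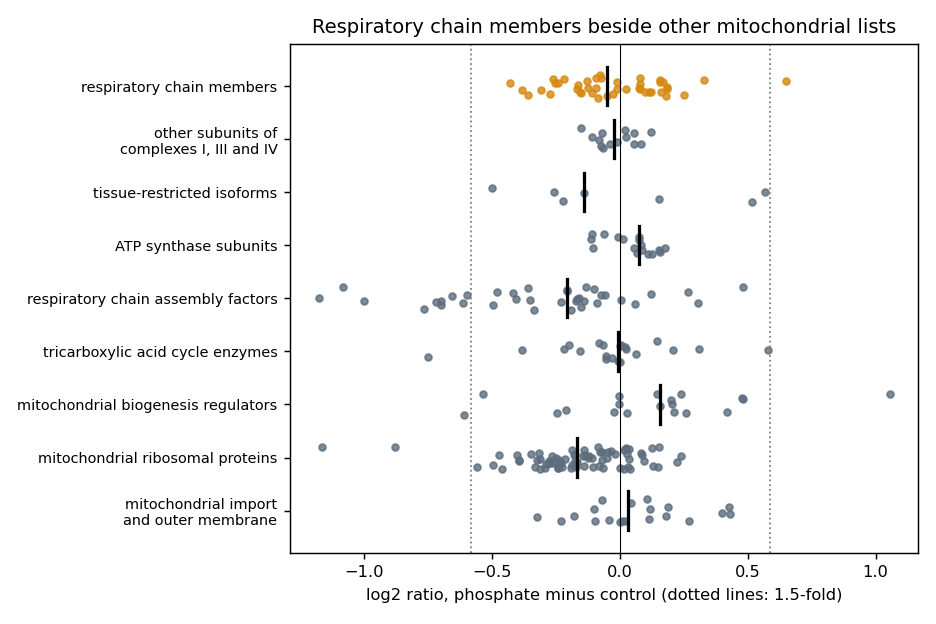
Log2 ratio of phosphate minus control (horizontal axis) for the 43 members and for 8 other lists of mitochondrial genes (rows), with each point a measured gene, each black bar the median of its list and dotted lines 1.5-fold. Only Cox7c among the members passes a dotted line, while 10 assembly factors lie past the lower one.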

How the data were processed

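The deposited intensity values are linear MAS5 signals of each probe set, made with GCOS 1.4 and MAS5, per the submitters' processing notes. Trimmed by 2% at each end, the mean was 200.0 on each array, so the authors' scaling equalised the averages and a change in total mRNA per cell would not be seen. Detection calls were not used here. Of 45037 probe sets other than 64 controls, the array's annotation named 1 gene for 34945, several for 932 and none for 9160. All 44 member symbols were found in the RefSeq gene table of GRCm38.p6, and no member symbol changed.

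Signals under the floor of 21.5 were raised to it before log2. A probe set was measured if at least 1 array exceeded the floor, and a gene took its brightest one by mean log2 signal. Ratios with 1 array under the floor are bounds. With 1 array per group there was no test, and genes were counted by size (1.5-fold and 2-fold). Arrays have no depth, so their number limits the precision. Steps were tested on simulated data with known fold changes. Python 3.11.15, pandas 2.3.3 and statsmodels 0.14.6 (lowess, fraction 0.3) were used.

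The alternatives, 11 in all, were 3 other treatments of low signals (no floor, the 35th percentile, the 65th), a pseudocount, 5 scalings and 2 choices of probe set. The members and lists were chosen with earlier results of these data known. The arms of complex I, the promoter motifs, the promoters printed and the gene ND5 were chosen after values were seen. Any member could be named. From other lists the 2 highest and 2 lowest genes were named, and any gene of the isoform and biogenesis lists.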

Additional observations from a re-analysis of the deposited data

Results flagged for a closer look

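The array maker's control spikes, left out of every gene comparison, had higher signals in phosphate. The 24 probe sets for poly-A spikes had a median log2 ratio (phosphate minus control) of 0.46, from 0.20 to 0.65. The 18 for hybridisation spikes, added after labelling, had a median of 0.23, from 0.14 to 0.47. All 42 of them were above 0. The part of these spikes in the ratios of the respiratory chain genes was not tested beyond the scalings given with the results.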

How the results depend on the processing

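No paired analysis was possible because each group had 1 array, and for the same reason no array could be left out. A median counted as moved if it differed from the reported one by the technical standard deviation of 0.16 for signals above 400, and a count if it differed by over 1.5 times. Of the recalculated summary values, 156 stayed within these limits and 42 moved. The medians of complexes III and IV, ATP synthase, biogenesis regulators and import, all above 0 as reported, turned below 0 with either set of spikes made equal, and ATP synthase also with loess and quantile normalization and complex III also with quantile normalization and the median over probe sets. With the poly-A spikes set equal, the medians were −0.52 for all members, −0.57 for complex I, −0.72 for complex II, −0.36 for complex III, −0.14 for cytochrome c and −0.30 for complex IV. They were −0.49 for the other subunits, −0.60 for the tissue-restricted isoforms, −0.39 for ATP synthase, −0.67 for assembly factors, −0.47 for the tricarboxylic acid cycle, −0.31 for biogenesis regulators, −0.63 for mitochondrial ribosomal proteins and −0.43 for import. Under that scaling 1 member gene and 3 probe sets were above 0, 15 genes were 1.5-fold lower or more, and 0 were higher by as much. With the hybridisation spikes set equal, the medians were −0.28 for all members, −0.34, −0.48 and −0.12 for complexes I, II and III, 0.10 for cytochrome c and −0.067 for complex IV. For the other lists, in the same order, they were −0.25, −0.37, −0.16, −0.44, −0.24, −0.073, −0.40 and −0.20. Under this scaling 3 member genes and 6 probe sets were above 0, 3 genes were 1.5-fold lower or more, and 0 were higher by as much. These shifts follow from the construction, which subtracts the same value from every gene. Quantile normalization gave −0.0098 for complex IV and 20 member probe sets above 0 against 31 as reported. Cox7c was no longer 1.5-fold higher, leaving 0 genes, with the floor at the 65th percentile, with the pseudocount, or without probe sets of the suffixes _x_at and _s_at, since it is dim and rests on such a probe set. The median over probe sets made 1 gene, Sdhc, at least 1.5-fold lower. For dim probe sets, signal over background limits what can be read.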

Other observations

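Mitochondrial ribosomal proteins, which translate the subunits encoded in mitochondrial DNA, lay lower in phosphate as a list. All 75 with a probe set were measured, 57 of them below 0, with a median log2 ratio of −0.17, compared with 55.9% of all measured genes. Only Mrps16 and Mrps27 were at least 1.5-fold lower, against 12.1% of all measured genes. None was 1.5-fold higher, against 7.26%. Mrps16 had 1363 in phosphate and 3057 in control (−1.17), and Mrps27 had 64.3 in phosphate and 118 in control (−0.88), each on 1 probe set. The highest were Mrps22 at 0.24 and Mrpl12 at 0.22. The median was −0.13 after loess correction and −0.15 after quantile normalization.

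Enzymes of the tricarboxylic acid cycle and the pyruvate dehydrogenase complex had a median of −0.01 over 21 genes. Of these, 1 passed 1.5-fold, against 19.4% of all measured genes in one or the other direction. That gene was Suclg2, a subunit of succinyl-CoA ligase, which makes succinate, the substrate of complex II. Suclg2 had 409 in phosphate and 689 in control (−0.75), and its other probe set gave −0.82. Idh2 was next at −0.38, and the pyruvate dehydrogenase kinase gene Pdk4 was highest at 0.58. Import and outer membrane genes had a median of 0.03, with Timm17b (−0.32) and Timm17a (−0.23) lowest and Timm8a1 (0.43) and Timm10 (0.43) highest. The probe set annotated to ND5, a complex I subunit encoded in mitochondrial DNA, had 1551 in phosphate and 1864 in control (−0.27).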
